A study of Mus musculus with 9 samples.

Results

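The jejunum of mice on total parenteral nutrition was compared with the jejunum of starved mice, which sets feeding through a vein against no feeding. The comparison took 6 of the 9 bulk RNA-seq libraries of the study, 3 labelled TPN and 3 labelled starvation, and all 21868 genes of the deposited count table, of which 14668 had enough reads to be tested. The 3 libraries labelled sham are the control of the study and are given beside the values. All groups were treated for 24 h, and each library came from a 5 cm piece of jejunum opened along its length, so that it can hold any cell type of the gut wall. The labels analysed here name no strain, sex, age, genotype, infused solution or sham procedure. The infusion procedure and the infused nutrients therefore cannot be told apart in this comparison. Replicates are labelled as biological without naming a mouse for each, so a p-value may reflect only the spread of these samples. In bulk tissue, fewer cells of a type and less RNA per cell cannot be told apart, and this holds for every result below.

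Parenteral nutrition delivers sugars, amino acids and usually lipid straight to the blood, so the absorptive cells of the small intestine are fed from the vessel side while their brush border meets no meal. Enterocytes at the villus carry the digestive enzymes and transporters of that brush border, whereas Paneth cells at the crypt base secrete antimicrobial defensins and support the neighbouring stem cells. In fasting, the fall of insulin and the rise of glucocorticoids and free fatty acids are known to switch tissues to fat oxidation, and mice with no energy supply lower their body temperature.

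Library totals among the 6 ran from 7779877 reads in TPN replicate 2 to 11421969 in TPN replicate 1. Starvation replicate 3 stood apart in its levels of cell type markers. Its 11 villus tip markers averaged 10.8 log2 CPM (read counts scaled to library size), against 8.56 and 9.09 in the other starved libraries and 8.35 to 8.83 in the TPN libraries. In stem cell, endothelial, macrophage, and B and plasma cell markers it was below the other 8 libraries. Pancreatic acinar markers were at 4.11, 9.69 and -0.913 in TPN and at 6.82, -1.11 and -1.07 in starvation, so that some pieces carried pancreatic RNA and others almost none. Sham replicate 2, which enters the comparison through the shared spread, also stood apart, with smooth muscle markers at 9.24 log2 CPM against 4.85 to 6.43 in the other 8 libraries. Each list and gene below was also computed without starvation replicate 3.

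**Figure D1:**
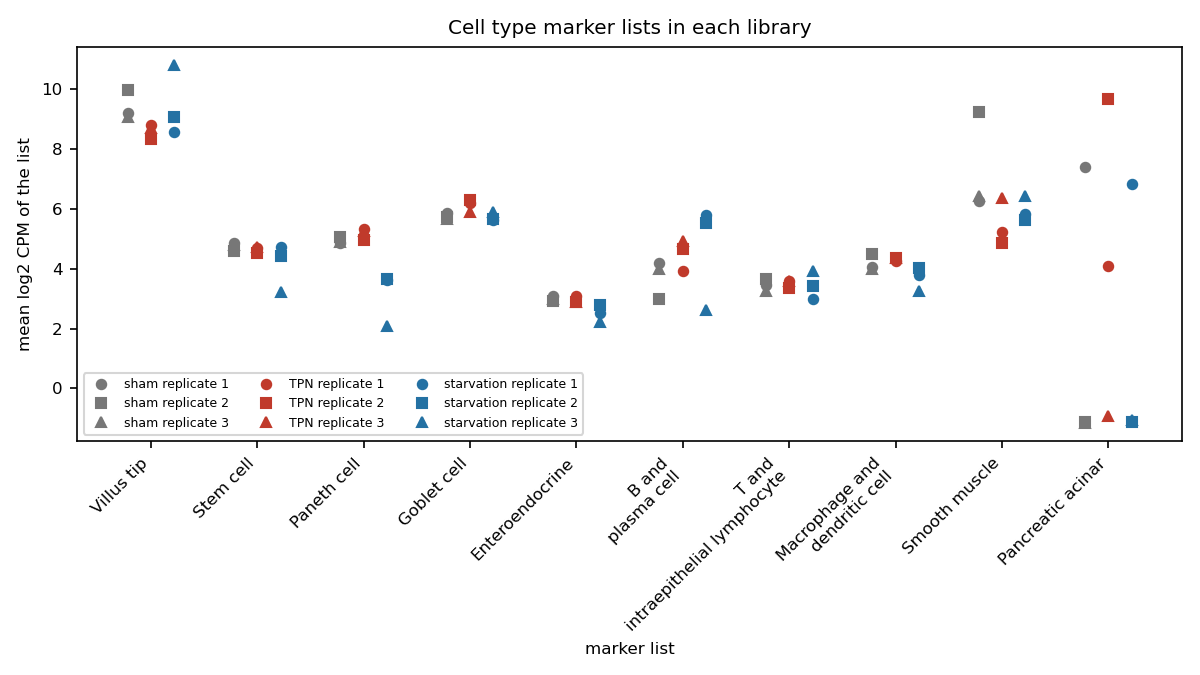
Mean log2 CPM of 10 cell type marker lists (y axis) in each of the 9 libraries, by list (x axis), coloured by group and shaped by replicate number. The Paneth cell list is lower in all 3 starved libraries (2.09 to 3.66) than in all 3 TPN libraries (4.96 to 5.33), while starvation replicate 3 is the highest library in villus tip and the lowest in stem cell markers.

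By the edgeR quasi-likelihood test with Benjamini-Hochberg adjustment over all genes, 285 genes were higher and 572 lower in TPN than in starvation at an adjusted p under 0.05. These are 1.94% and 3.90% of the genes tested, and "higher", "lower" and "passed" below refer to this test. At least 2-fold differences made up 169 and 363 of them. The 3 TPN libraries lay wholly above or below the 3 starved libraries for all 857, which was also the case for 33.6% of all genes tested. The median log2 fold change was -0.03 over all genes, 1.13 over those higher and -1.17 over those lower. Fold changes are given as TPN minus starvation on the log2 scale, with the standard error of the fit after ±.

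Leaving out 1 library moved these counts. Each such fit also has 1 library fewer, so a lost call does not by itself show that a gene rests on the library left out. Without TPN replicate 1, 2 or 3, 48, 47 and 43 genes were higher and 111, 90 and 81 lower. Without sham replicate 1, 2 or 3, which enter the fit through the shared spread, 177, 465 and 171 were higher and 363, 783 and 358 lower. Without starvation replicate 1, 2 or 3, 253, 143 and 482 were higher and 826, 319 and 593 lower. A call in all 9 of these fits was kept by 37 of the 285 and 74 of the 572, and a gene said below to hold throughout is one of those 111, while every other gene called higher or lower lost the call in at least 1 of them. The share of lower genes among those that passed was 66.7%, against 60.1% with library totals as the only scaling, which moves the median of all genes by 0.14, and 57.7% with upper quartile factors. In a fit of the 6 TPN and starvation libraries alone the counts were nearer to each other, 250 higher and 295 lower.

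**Figure D2:**
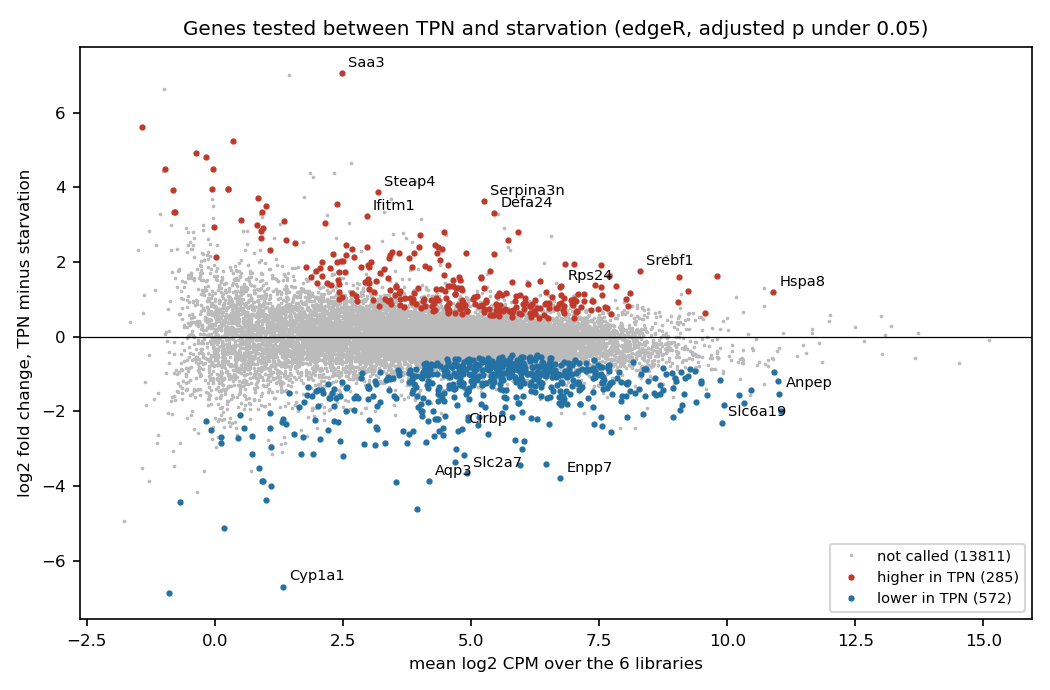
Log2 fold change of TPN minus starvation (y axis) against the mean log2 CPM over the 6 libraries (x axis) for the 14668 genes tested. The 285 genes higher in TPN are red, the 572 lower are blue, and Saa3 (7.06) and Cyp1a1 (-6.69) are among the largest differences.

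Acute phase and injury genes were more abundant in TPN than in starved jejunum, with none going the other way past the test. Of 24 listed genes 15 had enough reads to be tested, and 8 were higher and 0 lower, with a median log2 fold change of 2.12. Saa3, an acute phase apolipoprotein made outside the liver, had 1014, 617 and 836 reads in the TPN libraries and 0, 0 and 16 in the starved libraries. The sham libraries held 2, 21 and 1 reads of Saa3, so this transcript was abundant in TPN alone of the 3 groups. The TPN to starvation ratio of its reads was 143 (95% counting interval 88 to 251), which covers counting error only, with a quasi-likelihood adjusted p of 0.00905. All starved reads of Saa3 came from replicate 3. Serpina3n, an acute phase protease inhibitor at chr12:104406729-104414329 (GRCm38), was at 143, 175 and 152 CPM in TPN, 16.9, 18.9 and 2.20 in starvation and 5.50, 10.6 and 5.33 in sham. Steap4, a metalloreductase induced in inflammation, was at 32.4, 36.2 and 40.1 CPM in TPN, 2.47, 0.844 and 4.17 in starvation and 1.28, 7.79 and 4.17 in sham. For both genes every TPN library lay above all 6 others, and the log2 fold changes over starvation were 3.62 ± 0.60 and 3.86 ± 0.64.

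The iron-binding siderocalin Lcn2 had 59, 43 and 76 reads in TPN against 1, 3 and 0 in starvation, a ratio of 41.3 (95% counting interval 15.9 to 153). Cebpd, a transcription factor of the acute phase, was at 109.5, 107 and 122 CPM against 44.9, 39.7 and 43.4 in starvation and 24.3, 39 and 24.8 in sham. As in every gene that passed, the TPN and starved libraries did not overlap for these 2 genes. Lcn2, like Saa3, could be tested only because of its TPN reads, so both could hardly have come out lower. Cebpd lies over part of Spidr on the genome, so reads of the pair may not be fully separated. Osmr, the oncostatin M receptor (2.23 ± 0.47), Il1rn, the interleukin 1 receptor antagonist (2.34 ± 0.42), and the serpin Serpina3g (1.07 ± 0.18) made up the rest of the 8. Lrg1 did not pass, at 20.1, 92.6 and 17.4 CPM in TPN and 12.8, 6.12 and 3.24 in starvation (log2 fold change 2.53 ± 0.70, quasi-likelihood adjusted p = 0.0669). Saa3 and Cebpd held throughout, while Serpina3n and Steap4 lost the call without TPN replicate 2 or 3, with log2 fold changes of 3.19 to 4.01 and 3.46 to 4.45 over the 9 fits. Lcn2, Osmr and Il1rn lost it without any 1 of the TPN libraries, Serpina3g without TPN replicate 1 or 2, and Osmr also without starvation replicate 2.

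Several cytokines and receptors of neutrophils and other myeloid cells were higher in TPN too. Of 22 listed genes 14 were tested, with 6 higher, 0 lower, 8 that did not pass and a median of 1.93. Il1b, the inflammatory cytokine interleukin 1 beta, was at 14.7, 10.6 and 11.7 CPM in TPN, 1.20, 2.22 and 1.04 in starvation and 1.77, 3.31 and 2.67 in sham (3.05 ± 0.38, quasi-likelihood adjusted p = 0.00373). Its TPN libraries were 3-fold or more above every other library. The neutrophil attractant Cxcl1 had 42, 27 and 38 reads in TPN and 0, 4 and 0 in starvation, a ratio of 24.8 (95% counting interval 9.42 to 92.8). Cxcr2, the receptor of such chemokines on neutrophils, had 25, 21 and 42 reads against 3, 1 and 1, a ratio of 16.3 (95% counting interval 6.74 to 51.6). S100a8, a calcium-binding protein stored in neutrophils, had 39, 21 and 40 reads against 3, 0 and 0, a ratio of 30.9 (95% counting interval 10.3 to 153). These 3 genes had few reads in any library. They, and Ccl2 and Cxcl5 below, could be tested only because of their TPN reads, so they could hardly have come out lower. The 0 lower and the median of this list rest partly on such genes. Ccl2, an attractant of monocytes, had 57, 27 and 50 reads in TPN and 7, 1 and 0 in starvation and overlaps the predicted gene Gm17268 on the genome. Cxcl5, another neutrophil attractant, was at 6.10, 7.15 and 6.25 CPM against 1.04, 0.317 and 0 (3.71 ± 0.78).

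The myeloid integrin Itgam was at 33, 36.2 and 30.4 CPM in TPN, 7.58, 12.5 and 6.94 in starvation and 13.5, 14.1 and 15.4 in sham (1.88 ± 0.23, quasi-likelihood adjusted p = 0.00369), and it overlaps the gene model Gm49368. Markers of macrophages and dendritic cells as a list had 2 of 16 tested members higher, Itgam and Fcgr1, and a median of 0.44. The list averaged 4.25, 4.35 and 4.38 log2 CPM in TPN and 3.79, 4.04 and 3.24 in starvation, and its part in the cytokine result was not tested. The neutrophil surface marker Ly6g had no read in any library, and S100a9 had 8, 5 and 5 reads in TPN and none elsewhere. Genes picked after their values were seen include Selp, an adhesion molecule of activated endothelium (43, 23 and 54 reads against 4, 6 and 2). The ratio for Selp was 9.29 (95% counting interval 5.12 to 18.5). Fpr2 and Fpr3, formyl peptide receptors that overlap on the genome and may share reads, had 187 and 208 reads in TPN against 18 each in starvation. Il1b and Itgam held throughout, whereas the calls of Cxcl1, Cxcl5, Ccl2 and S100a8 were lost without any 1 of the TPN libraries. Cxcl5, Ccl2 and S100a8 also lost them without starvation replicate 2, S100a8 without starvation replicate 3, Cxcl1 without starvation replicate 1, and Cxcl1 and S100a8 without sham replicate 3. The call of Cxcr2 was lost without TPN replicate 2 or 3, that of Selp without TPN replicate 1 or 3, and those of Fpr2 and Fpr3 without any 1 of the TPN libraries or starvation replicate 2. Fcgr1 kept its call only without sham replicate 2 or 3. The log2 fold change of Cxcl5 ran from 3.25 to 5.21 over the 9 fits.

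Genes of matrix breakdown and of epithelial growth signals were higher as well. Mmp13, a collagenase, was at 36.2, 29.4 and 29.6 CPM in TPN, 5.74, 6.86 and 7.40 in starvation and 12.9, 16.3 and 10.7 in sham (2.25 ± 0.22, quasi-likelihood adjusted p = 0.00130). The 3 groups did not overlap, with TPN highest and starvation lowest. Ereg, an epidermal growth factor receptor ligand, was at 22.9, 25.5 and 23.3 CPM against 4.79, 6.02 and 3.93 in starvation, with sham at 11, 7.25 and 12.1. Tnfrsf23, a decoy receptor for the death ligand TRAIL, was at 17.4, 19.2 and 16.7 CPM against 4.47, 2.85 and 2.66, with sham at 6.87, 6.72 and 7.58. All 3 genes held throughout, and Ereg and Tnfrsf23 had log2 fold changes of 2.28 ± 0.25 and 2.40 ± 0.25. Areg, another ligand of that receptor and outside the naming rule, did not pass (-0.74 ± 0.54). Of 15 tested Mmp genes, a family looked up after the values were seen, 4 were higher and 0 lower.

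**Figure D3:**
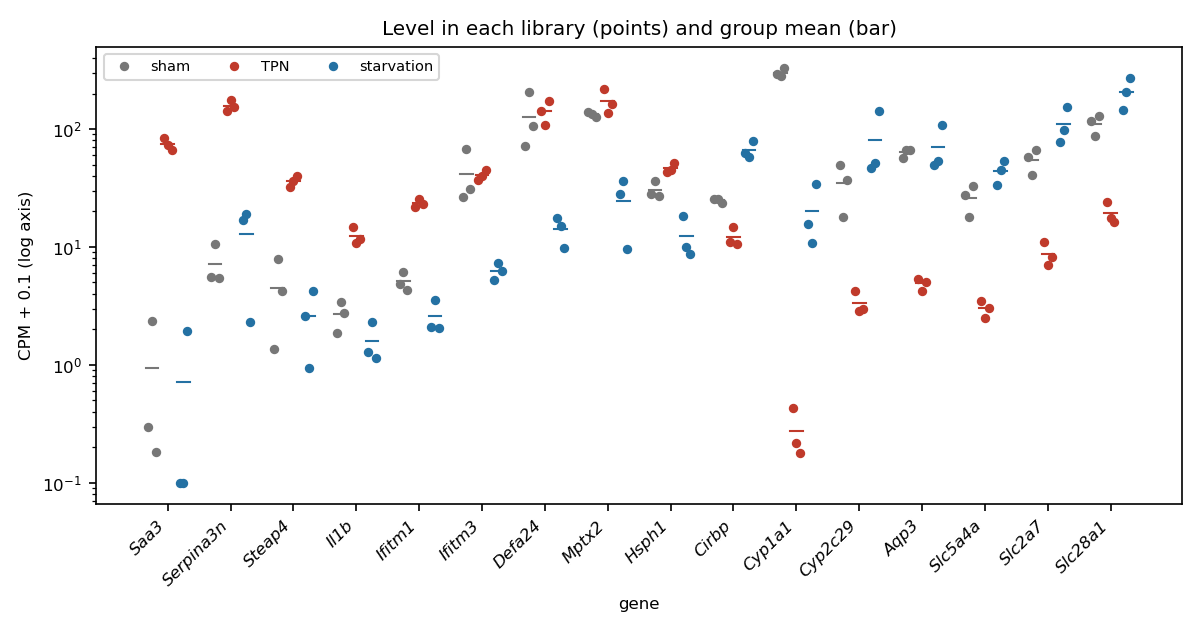
CPM plus 0.1 on a log axis (y axis) for 16 genes (x axis) in each library, with the group mean as a bar. The first 9 genes are higher in TPN than in starvation and the last 7 are lower. In none of them do the TPN and starved libraries overlap, as in every gene that passed.

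Interferon-induced transmembrane genes were higher in TPN. Ifitm1, Ifitm2 and Ifitm3 encode membrane proteins that restrict virus entry, lie together on chromosome 7, and were picked as a family after their values were seen, with 3 of 5 tested Ifitm genes higher. Ifitm1, at chr7:140967221-140969825, was at 21.8, 25.5 and 22.8 CPM in TPN, 1.99, 3.48 and 1.97 in starvation and 4.71, 6.08 and 4.25 in sham (3.23 ± 0.29, quasi-likelihood adjusted p = 0.00103). Ifitm3, at chr7:141009586-141010770, was at 36.9, 40.2 and 45.2 CPM in TPN, 5.11, 7.18 and 6.13 in starvation and 26.2, 68 and 30.9 in sham (2.73 ± 0.35). Ifitm1 was thus highest in TPN and lowest in starvation, while TPN and sham overlapped for Ifitm3 and the starved libraries lay below both. Ifitm2 was at 47.3, 43.4 and 52 CPM in TPN and 7.50, 12.8 and 6.83 in starvation (2.40 ± 0.40) and shares its place with the gene model Gm45717. The 3 genes are similar in sequence and may share reads. Ifitm1 and Ifitm3 held throughout, and Ifitm2 lost the call without any 1 of the TPN libraries (2.27 to 2.73 over the 9 fits).

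The interferon response list had 3 higher and 1 lower of 39 tested members, with a median of -0.04 against -0.03 for all genes. Without starvation replicate 3 it had 5 higher and 2 lower with a median of 0.31, and with the villus tip level as a covariate 7 higher and 3 lower with a median of 0.29. Its higher members were Gbp6, an interferon-induced GTPase (15.7, 18 and 11.9 CPM against 3.35, 5.07 and 3.70), Bst2, a tether of budding virus (1.27 ± 0.32), and Cxcl9, an attractant of T cells (1.16 ± 0.22). For Gbp6 and Cxcl9 the starved libraries lay below both sham and TPN, with sham at 12.6, 14.8 and 17.6 CPM for Gbp6 and 25.7, 19.7 and 27.2 for Cxcl9. Tap1, a peptide transporter of antigen presentation, was lower in TPN (50, 44.1 and 52.7 CPM against 81.1, 76 and 90.5, with sham at 104, 100.2 and 129). Gbp6 and Tap1 each overlap another gene model. The 9 tested genes of MHC class II presentation had none that passed and a median of -0.29. Without starvation replicate 3, 4 of those 9 were lower. Gbp6 held throughout, and Bst2, Cxcl9 and Tap1 lost the call without any 1 of the TPN libraries. Bst2 and Cxcl9 also lost it without starvation replicate 2, and Bst2 without starvation replicate 1 or sham replicate 3.

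About as many Paneth cell genes passed as did not, and those that passed were higher in TPN than in starvation. Of 15 marker genes 8 were higher and 0 lower, with a median of 2.05, or 1.75 without starvation replicate 3. Defa24, an alpha-defensin at chr8:21734494-21735471, was at 142, 108 and 174 CPM in TPN, 17.6, 15.1 and 9.72 in starvation and 72, 204 and 106 in sham. Mptx2, a pentraxin of Paneth cells, was at 217, 137 and 162 CPM in TPN, 27.8, 36.1 and 9.49 in starvation and 139, 135 and 127 in sham. In both cases sham and TPN overlapped and every starved library lay below them. The log2 fold changes were 3.32 ± 0.40 and 2.81 ± 0.41 (quasi-likelihood adjusted p = 0.00355 and 0.00714). Defa5 had 61, 30 and 53 reads in TPN and 6, 5 and 5 in starvation, a ratio of 8.36 (95% counting interval 4.97 to 15).

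Other defensins were also higher, Defa30 by 2.79 ± 0.47, Defa17 by 2.25 ± 0.36 and Defa3 by 2.84 ± 0.55. The table holds 22 Defa genes, of which 9 were tested and 6 were higher, and their near-identical copies can share reads. Mmp7, the protease that activates mouse defensins, was at 46, 32.2 and 43.7 CPM against 10.9, 10 and 1.97 (2.40 ± 0.50), and the lectin Itln1 at 308, 254 and 283 CPM against 118, 131 and 73.8 (1.39 ± 0.22). Lyz1, the Paneth cell lysozyme and the most abundant of these genes, did not pass, at 3392, 2560.1 and 2692 CPM in TPN and 1595, 1515 and 392 in starvation (log2 fold change 1.30 ± 0.44, quasi-likelihood adjusted p = 0.114). Without starvation replicate 3 its log2 fold change was 0.94 with a quasi-likelihood adjusted p of 0.00937. The ribonuclease Ang4 did not pass either (1.10 ± 0.47). Defa24, Defa5 and Mptx2 held throughout, and Mmp7 and Defa3 lost the call without starvation replicate 2 or any 1 of the TPN libraries. Defa30 and Itln1 lost it without TPN replicate 1 or 3, and Defa17 without TPN replicate 3.

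No listed stem cell or proliferation gene passed. The 17 stem cell markers and 30 cell cycle genes had medians of 0.56 and 0.22, or 0.23 and 0.04 without starvation replicate 3. Lgr5, the stem cell receptor, was at 8.32, 7.51 and 9.05 CPM in TPN and 16.6, 11.2 and 4.86 in starvation, and Olfm4 at 582, 490.0 and 548 and 536, 417 and 94.9. The proliferation marker Mki67 was at 91.1, 104 and 98.4 CPM in TPN and 126, 109 and 21.6 in starvation, and starvation replicate 3 was the lowest starved library for all 3 genes. Goblet, enteroendocrine and tuft cell markers had 1, 2 and 0 members higher of 14, 18 and 10 tested and none lower. Chga, a granule protein of endocrine cells, was at 60, 57 and 52.9 CPM against 38.1, 40.7 and 37 (0.55 ± 0.14, quasi-likelihood adjusted p = 0.0476), and Sst, somatostatin, at 29.3, 24.8 and 24.6 against 10.5, 11.9 and 17.5 (0.99 ± 0.23). Muc2, the main goblet mucin, and Dclk1, a tuft cell kinase, did not pass (0.26 ± 0.22 and 0.10 ± 0.30). Chga and Sst lost the call in 7 of the 9 fits that left out 1 library, all but those without sham replicate 2 or starvation replicate 3.

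Several chaperones of the cytosol and their partners were higher in TPN, and none was lower. Of 20 heat shock genes 10 were higher and 0 lower, with a median of 0.94, or 0.90 without starvation replicate 3. Hsph1, a partner of the Hsp70 chaperones at chr5:149614287-149636376, was at 43.3, 44.8 and 51.1 CPM in TPN, 18.2, 9.82 and 8.68 in starvation and 28, 36.5 and 26.7 in sham (1.91 ± 0.27, quasi-likelihood adjusted p = 0.00667). Hspa8, the constitutive Hsp70, was at 2882, 2924 and 2844 CPM in TPN, 1284, 1444 and 1061 in starvation and 1642, 1406 and 1665 in sham. Chordc1, a cochaperone of Hsp90, was at 61.7, 57.8 and 61.6 CPM in TPN, 33.9, 34.7 and 34.1 in starvation and 48.3, 43.1 and 44.7 in sham (0.82 ± 0.11). The TPN libraries were above sham and starvation without overlap for these 3 genes, and the starved libraries of Hsph1 and Chordc1 were below sham. Hsp90ab1 and Hsp90aa1, the Hsp90 chaperones, had log2 fold changes of 1.62 ± 0.31 and 1.36 ± 0.25, and Hspa8 of 1.19 ± 0.19. The cochaperones Fkbp4, Ahsa1, Stip1 and Hspa4l were higher by 1.18 ± 0.23, 1.03 ± 0.19, 0.84 ± 0.16 and 1.30 ± 0.20. Hspa1a, the classic stress-inducible Hsp70, did not pass, at 4.04, 2.50 and 4.32 CPM in TPN and 5.19, 4.54 and 4.40 in starvation. Hsph1 and Chordc1 held throughout, Hspa4l lost the call without TPN replicate 3, and the other 7 lost it without any 1 of the TPN libraries, Hsp90ab1 also without starvation replicate 2.

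Promoter sequence is shown for 3 of these chaperone genes, to set the letters that heat shock factor is known to bind beside members that were higher together. The windows are from RefSeq (GRCm38.p6), 300 bases from 250 before to 50 after the annotated start, read along the gene's strand. Capitals mark each match of GAANNTTC or TTCNNGAA, which read the same on both strands, and matches that overlap run together.
Hsph1, minus strand of chr5:149636287-149636586: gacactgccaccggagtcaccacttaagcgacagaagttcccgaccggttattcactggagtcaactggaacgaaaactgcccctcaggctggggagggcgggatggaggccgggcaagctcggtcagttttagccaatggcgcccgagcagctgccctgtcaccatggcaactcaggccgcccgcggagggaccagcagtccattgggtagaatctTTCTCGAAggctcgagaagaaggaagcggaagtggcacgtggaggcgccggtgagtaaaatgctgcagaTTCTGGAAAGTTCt
Hspe1, plus strand of chr1:55087898-55088197: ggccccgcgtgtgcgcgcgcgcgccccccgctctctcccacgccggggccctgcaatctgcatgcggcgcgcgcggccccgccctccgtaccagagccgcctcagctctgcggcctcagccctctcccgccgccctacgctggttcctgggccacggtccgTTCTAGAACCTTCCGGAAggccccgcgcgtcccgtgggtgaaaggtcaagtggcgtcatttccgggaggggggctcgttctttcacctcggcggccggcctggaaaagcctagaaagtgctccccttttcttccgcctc
Chordc1, plus strand of chr9:18292017-18292316: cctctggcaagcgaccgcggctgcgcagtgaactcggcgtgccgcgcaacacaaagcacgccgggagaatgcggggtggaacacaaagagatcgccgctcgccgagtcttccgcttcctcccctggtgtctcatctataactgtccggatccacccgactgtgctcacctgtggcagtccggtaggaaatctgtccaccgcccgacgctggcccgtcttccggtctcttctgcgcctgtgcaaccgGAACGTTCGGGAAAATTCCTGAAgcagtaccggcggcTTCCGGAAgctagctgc
Hspe1 encodes the cofactor of the mitochondrial chaperonin Hspd1 and lies beside it on the genome, and it was higher in TPN (43.9, 35.4 and 43.2 CPM against 22.7, 11.6 and 13.5, 1.35 ± 0.24) whereas Hspd1 did not pass (1.12 ± 0.36). The windows of Hsph1, Hspe1 and Chordc1 hold 3, 3 and 5 matches. They were chosen for these matches. A match was found in 4 of the 7 higher heat shock genes with a window and in 5 of the 8 that did not pass, Hspa1a among them, so matches were no more frequent among the higher genes. Hspa4l, Ahsa1 and Stip1, all higher, hold none, and 15.1% of all 27025 windows hold one. A match describes the letters only, and 5 listed genes, Hspa8 and both Hsp90 genes among them, had no entry.

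Both cold-inducible RNA-binding protein genes went the other way. Cirbp and Rbm3, whose transcripts are known to accumulate when cells cool, belong to none of the lists and were picked after their values were seen. Cirbp, at chr10:80165985-80172786, was at 10.9, 14.7 and 10.5 CPM in TPN, 62.8, 57.8 and 78.9 in starvation and 25.5, 25.6 and 23.4 in sham. Its 3 groups did not overlap, with starvation highest and TPN lowest, and the log2 fold change was -2.47 ± 0.19 (quasi-likelihood adjusted p = 7.2e-04). Rbm3 was at 27.2, 25.3 and 27.9 CPM in TPN, 75.4, 65.8 and 59.5 in starvation and 42.5, 38.1 and 33.8 in sham (-1.32 ± 0.15, quasi-likelihood adjusted p = 0.00204) and was ordered likewise. Both held throughout. Folding factors of the endoplasmic reticulum had 2 higher and 0 lower of 25 tested, Pdia3 (0.66 ± 0.15) and Sdf2l1 (0.77 ± 0.17), and both lost the call without any 1 of the TPN libraries, sham replicate 1 or 3, or starvation replicate 2, and Pdia3 also without starvation replicate 1.

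Those transcripts of the cytosolic ribosome that passed were higher in TPN. A list of 29 ribosomal protein genes had 8 higher and 0 lower, with a median of 0.68, and 13 higher without starvation replicate 3. The whole family of 82 tested genes, looked up after the list, had 24 higher and 0 lower and a median of 0.74, with 81 of the 82 above 0. The median of the same 82 was -0.56 for starvation minus sham and 0.15 for TPN minus sham, comparisons that share their libraries with this one. Rps24 was at 174, 172 and 176 CPM in TPN, 73.2, 73.3 and 58 in starvation and 119, 159 and 116 in sham (1.35 ± 0.17, quasi-likelihood adjusted p = 0.00355). Rpl37 was at 37.8, 47.4 and 41.7 CPM in TPN, 16.8, 21.1 and 13.5 in starvation and 33.4, 43.2 and 32.2 in sham (1.30 ± 0.20). Every starved library was below every sham and TPN library for both genes. Npm1, a chaperone of ribosome assembly in the nucleolus, was also higher (0.93 ± 0.17), the only 1 of 25 ribosome biogenesis and MYC target genes that passed. None of 20 cytosolic aminoacyl-tRNA synthetases passed (median 0.13), and of 78 mitochondrial ribosomal protein genes 3 were higher and 0 lower, with a median of -0.01. Ribosomal protein genes are short and have many processed copies, so reads may be shared. The 82 had a median exon length of 1775.5 bases against 4348 for all genes, and 12 of them had under 1000 bases. Among 397 other genes under 1000 bases, 5.54% were higher, with a median of 0.00, or 0.14 without starvation replicate 3. Among 1614 other genes of 1000 to 2000 bases, 2.42% were higher, with a median of -0.11. The part of length in the ribosomal result was not tested. Rps24 held throughout, Rpl37 lost the call without TPN replicate 2, and Npm1 without TPN replicate 1 or 3.

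**Figure D4:**
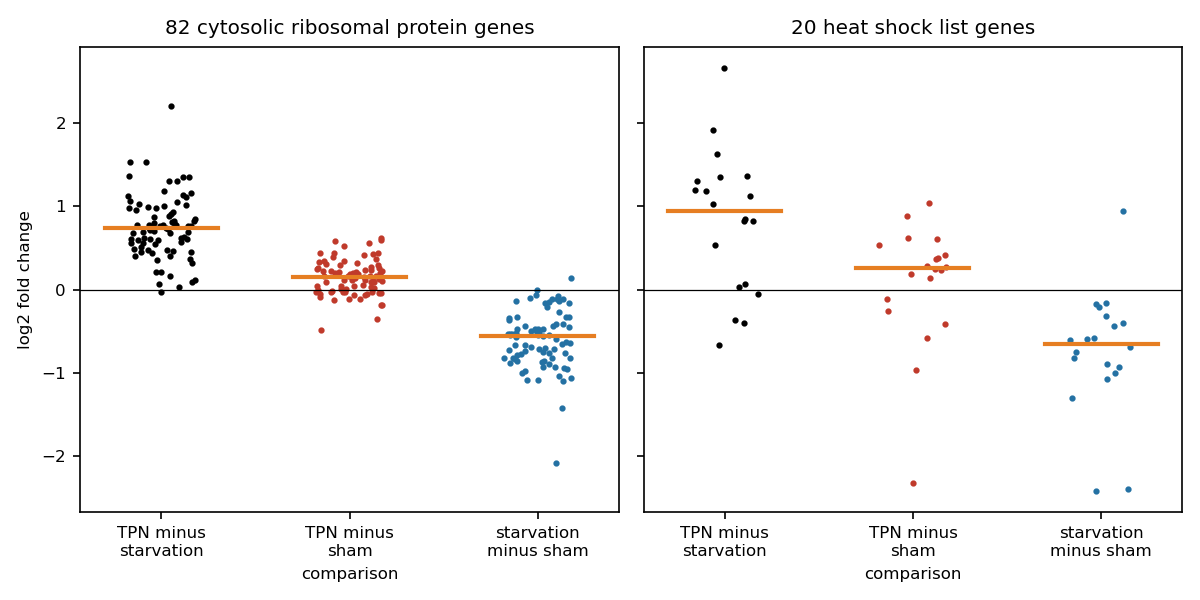
Log2 fold changes (y axis) of the 82 cytosolic ribosomal protein genes (left) and the 20 heat shock genes (right) in the 3 comparisons (x axis), 1 point per gene, with the median as an orange line. The ribosomal medians are 0.74, 0.15 and -0.56, and the 3 comparisons share libraries.

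Among genes of absorption, several of sugar handling were lower in TPN. Of 20 genes of carbohydrate digestion and sugar transport 1 was higher and 10 were lower, with a median of -0.99, or -0.58 without starvation replicate 3. Slc5a4a, a sodium-coupled glucose sensor of the SGLT3 type at chr10:76147451-76189265, was at 3.38, 2.38 and 2.96 CPM in TPN, 33.3, 44.9 and 53.8 in starvation and 27.5, 17.7 and 32.7 in sham (-3.90 ± 0.30, quasi-likelihood adjusted p = 7.2e-04). Slc2a7, a hexose transporter, was at 11, 6.91 and 8.17 CPM in TPN, 77.4, 97.4 and 154 in starvation and 57.6, 40.6 and 66.1 in sham (-3.65 ± 0.32). For both genes every TPN library was below every other library by at least 3-fold. The paralog Slc5a4b had a log2 fold change of -2.67 ± 0.25. Slc2a5, the fructose transporter of the brush border, was at 63.3, 58 and 53.5 CPM in TPN, 153, 180.1 and 284 in starvation and 216, 192 and 219 in sham (-1.82 ± 0.23), and Slc2a2, the basolateral hexose carrier, had a log2 fold change of -1.55 ± 0.23. Khk, the first enzyme of fructose breakdown, and Fbp1, of gluconeogenesis, were lower, with log2 fold changes of -1.11 ± 0.22 and -1.86 ± 0.35.

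The transcripts of the 2 proteins that carry most dietary glucose and cut most dietary sucrose did not pass. Slc5a1, the sodium glucose cotransporter SGLT1, was at 2386, 2266 and 2096 CPM in TPN and 2337, 2759 and 4518 in starvation (-0.51 ± 0.26, quasi-likelihood adjusted p = 0.279). Sis, sucrase-isomaltase, was at 976, 799 and 869.8 CPM against 973, 1336 and 1481 (-0.52 ± 0.20). In both, starvation replicate 3 was the highest starved library, and the log2 fold changes without it were -0.13 and -0.34. G6pc, the phosphatase that releases free glucose from glucose 6-phosphate, was the higher member, at 172, 177 and 159 CPM in TPN, 55.1, 68.2 and 78.4 in starvation and 60.9, 31.3 and 61.1 in sham (1.33 ± 0.25). Its partner in that release, the transporter Slc37a4, was lower (-1.23 ± 0.20). Slc5a4a, Slc5a4b, Slc2a7 and Slc2a5 held throughout, Slc2a2 lost the call without TPN replicate 2 or 3, and Khk, Fbp1, G6pc and Slc37a4 without any 1 of the TPN libraries, G6pc also without starvation replicate 2.

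Many peptidases and carriers of peptides and amino acids were lower in TPN. Of 27 listed genes 25 were tested and 13 were lower, with a median of -1.26. Without starvation replicate 3, 12 were lower with a median of -0.81. Slc36a1, a proton-coupled amino acid carrier, was at 79.4, 89.5 and 81.8 CPM in TPN, 309, 388 and 616 in starvation and 314, 288 and 409 in sham (-2.39 ± 0.27, quasi-likelihood adjusted p = 0.00219). Slc6a19, the main carrier of neutral amino acids, was at 493, 438 and 452 CPM in TPN, 1227, 1609 and 3989 in starvation and 989.9, 1074 and 933 in sham (-2.30 ± 0.39). The TPN libraries were the lowest for both, and the starved libraries of Slc6a19 were above sham. Its log2 fold change was -1.57 without starvation replicate 3. Slc15a1, the peptide transporter PepT1, was at 198, 164 and 149 CPM in TPN, 369, 563 and 1214 in starvation and 261, 502 and 318 in sham (-2.07 ± 0.43, or -1.40 without starvation replicate 3). Xpnpep2, a proline-specific peptidase, was at 11.2, 11.4 and 11.4 CPM against 41.2, 65.1 and 89.1 (-2.52 ± 0.28), and the aminopeptidase Anpep at 1172, 1433 and 1134 against 2509, 3517 and 4737 (-1.53 ± 0.28). Slc43a2, a carrier of large neutral amino acids, had a log2 fold change of -1.83 ± 0.23. Dpp4, Mme, Ggt1, Enpep, Slc6a20a, Slc7a8 and Slc16a10 completed the 13, with log2 fold changes between -1.58 ± 0.27 (Mme) and -0.91 ± 0.21 (Enpep).

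Slc36a1, Slc43a2 and Xpnpep2 held throughout, Slc6a20a lost the call without TPN replicate 2 or 3, and the other 9 lost it without any 1 of the TPN libraries. Dpp4, Enpep, Slc7a8 and Slc16a10 also lost it without starvation replicate 2, Enpep and Slc7a8 without starvation replicate 3, Enpep, Slc7a8 and Slc16a10 without sham replicate 1, and Dpp4, Enpep and Slc16a10 without sham replicate 3. Villus tip markers averaged 8.83, 8.35 and 8.73 log2 CPM in TPN and 8.56, 9.09 and 10.8 in starvation, and of the 11 only Alpi, an alkaline phosphatase, passed (-2.0 ± 0.44, or -1.34 without starvation replicate 3). Alpi lost the call without any 1 of the TPN libraries or sham replicate 3. The list's median was -1.06, and 0.00 without starvation replicate 3. With the villus tip level of each library as a covariate, 595 genes were higher and 870 lower, among them 253 of the 285 and 518 of the 572. That level was the mean of the 11 markers in these same counts, and was highest in starvation replicate 3. The fit therefore cannot tell villus content from a change in the markers themselves. Over the family of 290 tested Slc genes, looked up after the values were seen, 2 were higher and 42 lower.

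**Figure D5:**
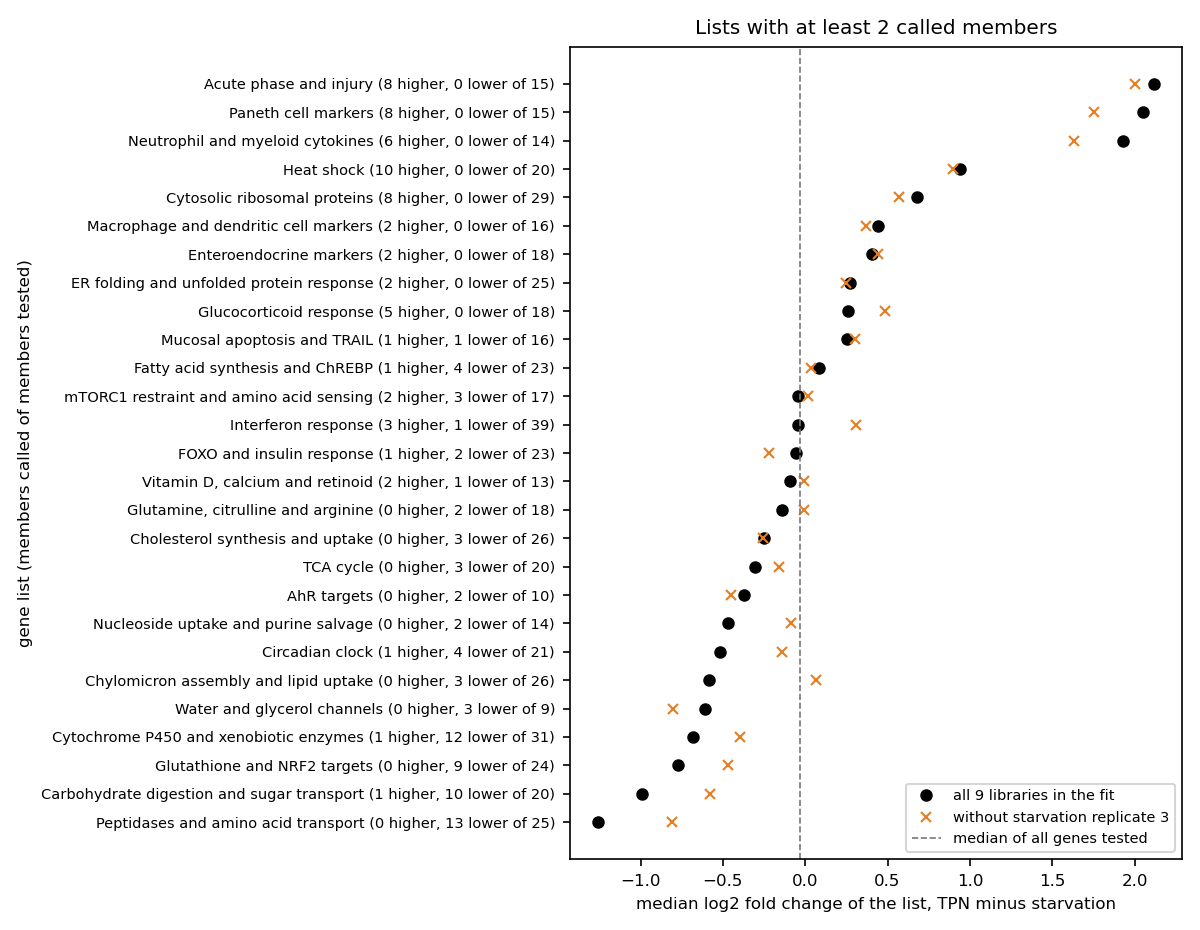
Median log2 fold change of TPN minus starvation (x axis) for each gene list with at least 2 members that passed (y axis), with the counts of members in the label. Black points use all libraries and orange crosses leave out starvation replicate 3, and the dashed line is the median of all genes (-0.03).

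Single genes of nucleoside, lipid and vitamin uptake were lower in TPN. Slc28a1, a concentrative nucleoside transporter at chr7:81114799-81170416, was at 23.7, 17.4 and 16.3 CPM in TPN, 144, 207 and 273 in starvation and 117, 87.7 and 129 in sham (-3.44 ± 0.28, quasi-likelihood adjusted p = 7.6e-04). Gda, guanine deaminase, was lower as well (-1.77 ± 0.28), 2 of 14 tested genes of that list. Cubn, the receptor for intrinsic factor with vitamin B12, was at 26, 28.1 and 16.9 CPM in TPN, 103, 188 and 282 in starvation and 23.4, 52.9 and 50.5 in sham (-3.01 ± 0.43). For Cubn, TPN and sham overlapped and the starved libraries lay above both. Enpp7, the intestinal alkaline sphingomyelinase, was at 33.5, 31.5 and 26.4 CPM in TPN, 176, 512 and 579 in starvation and 89.5, 451 and 252 in sham (-3.79 ± 0.61). Of 26 tested genes of chylomicron assembly and lipid uptake 0 were higher and 3 lower, with a median of -0.58 that became 0.07 without starvation replicate 3. Fabp2, the intestinal fatty acid binding protein, was at 274, 215 and 265 CPM against 525, 825 and 2024 (-2.16 ± 0.46, or -1.37 without that library). Dgat1, which makes triglyceride, and Slc27a4, a fatty acid carrier, were lower, with log2 fold changes of -1.56 ± 0.29 and -1.75 ± 0.38, or -1.10 and -1.04 without it. Fabp1 and Apoa4 did not pass (-0.09 ± 0.22 and -0.72 ± 0.57). Slc28a1 and Cubn held throughout, while Gda, Enpp7, Fabp2, Dgat1 and Slc27a4 lost the call without any 1 of the TPN libraries, Slc27a4 also without sham replicate 1 or 3.

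A water and glycerol channel of the gut, Aqp3, was among the 15 largest falls. Aqp3, which sits in the basolateral membrane and lies at chr4:41092722-41098183, was at 5.27, 4.17 and 4.96 CPM in TPN, 49.4, 53.9 and 108 in starvation and 56.7, 66.6 and 66.7 in sham (-3.86 ± 0.31, quasi-likelihood adjusted p = 7.6e-04). Starvation and sham overlapped for Aqp3, and every TPN library was below both. Aqp7, a related glycerol channel, was at 8.65, 6.32 and 11.9 CPM in TPN, 39.1, 55.5 and 186 in starvation and 58.2, 85.8 and 58.6 in sham (-3.37 ± 0.56, or -2.33 without starvation replicate 3). Gpd1, which converts glycerol 3-phosphate in the cytosol, was lower (-1.12 ± 0.20). The other 6 tested genes of the list did not pass, among them the water channel Aqp1 (-0.28 ± 0.37) and the glycerol kinase Gk (-0.61 ± 0.27). Aqp3 held throughout, and Aqp7 and Gpd1 lost the call without any 1 of the TPN libraries.

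Genes of xenobiotic metabolism that passed were lower in TPN, with 1 exception. Of 31 tested cytochrome P450 and other xenobiotic genes 1 was higher and 12 were lower, with a median of -0.68, or -0.39 without starvation replicate 3. Cyp1a1, the enzyme induced by the aryl hydrocarbon receptor, had 4, 1 and 1 reads in TPN, 195, 101 and 293 in starvation and 2973, 2634 and 3971 in sham. The 3 groups were ordered sham, starvation, TPN without overlap, and the starvation to TPN ratio was 106 (95% counting interval 48.3 to 289), with a quasi-likelihood adjusted p of 0.00103. Nqo1, a quinone reductase, was at 7.99, 6.91 and 8.33 CPM in TPN, 33.7, 34.5 and 34.1 in starvation and 56.4, 39 and 49.1 in sham (-2.13 ± 0.17). Of 10 tested target genes of the aryl hydrocarbon receptor 0 were higher and 2 lower, Cyp1a1 and Nqo1, with a median of -0.37. The aryl hydrocarbon receptor repressor Ahrr, and Tiparp, 2 further targets of that receptor outside the naming rule, did not pass (-0.22 ± 0.37 and 0.27 ± 0.16).

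Of 8 tested Cyp2c genes, which are close copies and may share reads, 6 were lower and 0 higher. Cyp2c29 was at 4.12, 2.74 and 2.88 CPM in TPN, 47, 51.2 and 143 in starvation and 49.1, 17.8 and 36.8 in sham (-4.62 ± 0.56, or -3.85 without starvation replicate 3), and Cyp2c55 at 1.73, 1.43 and 2.16, 13.7, 16.1 and 19.8 and 34.8, 30.1 and 36.7 in the same order (-3.20 ± 0.24). For Cyp2c55 the starved libraries also lay below sham, whereas for Cyp2c29 they did not. Cyp2b10, a target of the receptor CAR, had a log2 fold change of -2.33 ± 0.31. Ces2a, a carboxylesterase, was the higher member (0.96 ± 0.18). Glutathione and NRF2 target genes had 0 higher and 9 lower of 24 tested, with a median of -0.77, or -0.47 without starvation replicate 3. Gstm1, a glutathione transferase, was at 29.9, 33.7 and 38.2 CPM in TPN, 166, 167 and 127 in starvation and 126, 126 and 129.9 in sham (-2.17 ± 0.16, quasi-likelihood adjusted p = 7.2e-04). Here starvation replicate 3 was the lowest starved library, and the log2 fold change without it was -2.23. Gclc, which makes the first bond of glutathione, and Gpx2, the gut glutathione peroxidase, were lower, with log2 fold changes of -1.11 ± 0.17 and -1.24 ± 0.24. Cyp1a1, Nqo1, Cyp2c29, Cyp2c55, Cyp2c66, Cyp2b10, Gstm1 and Gstm4 held throughout, while Gclc lost the call without TPN replicate 2 or 3 and Gpx2 and Ces2a without any 1 of the TPN libraries, Gpx2 also without starvation replicate 2.

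None of 28 tested genes of the PPAR alpha and fasting list passed between TPN and starvation. Their median was -0.06, and 3 were higher without starvation replicate 3. Pdk4, which restrains pyruvate oxidation, was at 333, 322 and 308 CPM in TPN, 121, 174 and 329.5 in starvation and 44.8, 52.5 and 49.6 in sham (0.62 ± 0.31, quasi-likelihood adjusted p = 0.260). Angptl4, an inhibitor of lipoprotein lipase, was at 118, 115 and 97.3 CPM in TPN, 45.6, 62.6 and 98.5 in starvation and 9.82, 7.47 and 11.7 in sham (0.68 ± 0.27). Both groups lay above sham for both genes. Starvation replicate 3 was the highest starved library in each, and without it Pdk4 and Angptl4 were higher in TPN by 1.17 and 1.08 (quasi-likelihood adjusted p = 0.00711 and 0.0189). Cpt1a, the entry enzyme of mitochondrial fat oxidation, did not pass (0.35 ± 0.32). A p over the threshold does not show that the states are alike. In a simulation without shifts shared across a library, 2-fold changes were recovered in 18 of 100 genes and 4-fold changes in 69 of 100.

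Glucocorticoid response genes had 5 higher and 0 lower of 18 tested, with a median of 0.26, or 7 higher with a median of 0.48 without starvation replicate 3. Fkbp5, a chaperone of the steroid receptor, was at 421, 433 and 389.6 CPM in TPN, 166, 162 and 226 in starvation and 19.3, 12.3 and 15 in sham (1.17 ± 0.20, quasi-likelihood adjusted p = 0.0140). Ddit4, an inhibitor of the growth kinase mTORC1, was at 141, 156 and 119.6 CPM in TPN, 60.6, 53.7 and 34.1 in starvation and 28.1, 30.1 and 26.2 in sham (1.49 ± 0.21). TPN was the highest group for both genes, with no overlap, and starvation lay between TPN and sham. Zbtb16 and Errfi1 were higher by 1.58 ± 0.34 and 1.11 ± 0.22, and the remaining member was Lcn2, already counted among the acute phase genes. Metallothioneins, which bind zinc and respond to glucocorticoids, did not pass between TPN and starvation. Mt1 was at 140.0, 215 and 157 CPM in TPN, 249, 230.1 and 596 in starvation and 20.9, 17 and 22 in sham. Mt2 had a log2 fold change of -0.89 ± 0.36, with sham at 7.95, 2.67 and 4.75 CPM. For both genes every TPN and starved library lay above sham. Ddit4 held throughout, and Fkbp5, Zbtb16 and Errfi1 lost the call without any 1 of the TPN libraries or starvation replicate 2, and Zbtb16 also without starvation replicate 1 or sham replicate 3.

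Few nutrient-sensing genes passed. Of 17 genes of mTORC1 restraint and amino acid sensing 2 were higher, Ddit4 and Rragd, and 3 were lower, Castor2, Flcn and Rptor. Flcn and Rptor kept the call only without sham replicate 2, and without starvation replicate 3 the list had 3 higher and 1 lower. Castor2, a relative of the arginine sensor, was at 72.8, 64 and 60.5 CPM in TPN and 139, 158 and 302 in starvation (-1.60 ± 0.27), and Rragd, a GTPase that tethers mTORC1 to lysosomes, at 277, 251 and 249 and 159, 147 and 145 (0.79 ± 0.14). Srebf1, the transcription factor of fatty acid synthesis that insulin induces in liver, was at 586, 577 and 597 CPM in TPN, 129, 157 and 235 in starvation and 169, 166 and 225 in sham (1.76 ± 0.24, quasi-likelihood adjusted p = 0.00575). TPN alone was high for Srebf1, whose locus overlaps Rai1. Its usual target Fasn, fatty acid synthase, did not pass (0.66 ± 0.59), and Me1, malic enzyme, was lower, at 9.06, 7.51 and 7.85 CPM in TPN and 38.3, 29.2 and 29.6 in starvation (-1.99 ± 0.19). Among 23 tested genes of fat synthesis, 1 was higher and 4 were lower. Of 26 cholesterol genes 3 were lower and 0 higher, Mvk (-1.40 ± 0.29), Msmo1 (-1.33 ± 0.31) and Dhcr7 (-1.0 ± 0.24).

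The ATF4 and serine synthesis list had 1 lower of 23 tested, Trib3, a pseudokinase. Trib3 was at 9.97, 9.54 and 10.3 CPM in TPN, 25.6, 26.1 and 68.3 in starvation and 22.7, 39.9 and 24.8 in sham (-2.0 ± 0.40, or -1.32 without starvation replicate 3). TPN was the lowest group, and starvation replicate 3 was the highest library. Asns, asparagine synthetase, did not pass (0.34 ± 0.48). Among FOXO and insulin response genes Sesn1 and Trib3 were lower (-1.07 ± 0.17 for Sesn1), G6pc was higher, and Irs2 and Txnip did not pass (0.29 ± 0.26 and 0.63 ± 0.19). None of 40 genes of mitochondrial respiration, 26 of the proteasome or 31 of autophagy and lysosome passed, and 3 of 20 genes of the TCA cycle were lower. Srebf1 and Me1 held throughout, and Castor2, Rragd, Trib3, Sesn1, Mvk, Msmo1 and Dhcr7 lost the call without any 1 of the TPN libraries. Rragd, Mvk, Msmo1 and Dhcr7 also lost it without starvation replicate 2, Dhcr7 without starvation replicate 1 or 3, Msmo1 and Dhcr7 without sham replicate 3, and Msmo1 without sham replicate 1.

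Circadian clock genes included 4 that were lower and 1 that was higher in TPN, of 21 tested. Ciart, a repressor of the clock, was at 1.48, 0.954 and 1.28 CPM in TPN, 5.58, 6.12 and 13 in starvation and 1.57, 1.49 and 1.67 in sham (-2.70 ± 0.42, quasi-likelihood adjusted p = 0.00907). Per3, a period gene that overlaps Camta1, was at 24.4, 23.6 and 23.1 CPM in TPN, 47.6, 56.2 and 71.7 in starvation and 28.8, 20.2 and 29.4 in sham (-1.30 ± 0.20). For both, TPN and sham lay close together and starvation was higher. Cry2, a cryptochrome, and the output gene Dbp were lower in TPN, with log2 fold changes of -1.11 ± 0.23 and -1.45 ± 0.30. Dbp was at 47.8, 43.7 and 42 CPM in TPN, 84.5, 109 and 171 in starvation and 90.9, 178 and 119 in sham. Sham and starvation thus overlapped for Dbp, and every TPN library lay below both. Nfil3, a repressor that competes with Dbp for its sites, was higher, at 16.2, 17.5 and 15.9 CPM in TPN against 7.34, 7.49 and 8.10 (1.11 ± 0.19). Per1 and the core activator Arntl did not pass (-0.19 ± 0.21 and 0.39 ± 0.33). The median of the list was -0.52, and -0.14 without starvation replicate 3. No harvest hour is named in the labels analysed here. Ciart and Per3 lost the call without TPN replicate 2 or 3, Nfil3 without any 1 of the TPN libraries, and Cry2 and Dbp also without starvation replicate 2.

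The window of Ciart is shown because the clock activators are known to bind the E-box CACGTG, here in capitals, in the promoters of clock repressors. It is from RefSeq (GRCm38.p6), with the same 250 bases before and 50 after the start.
Ciart, minus strand of chr3:95882179-95882478: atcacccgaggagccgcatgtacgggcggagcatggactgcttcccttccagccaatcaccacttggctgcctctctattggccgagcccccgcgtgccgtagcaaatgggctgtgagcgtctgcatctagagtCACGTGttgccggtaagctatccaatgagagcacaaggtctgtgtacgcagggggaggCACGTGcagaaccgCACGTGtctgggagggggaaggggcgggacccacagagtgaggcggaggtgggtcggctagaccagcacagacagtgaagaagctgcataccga
The window holds 3 matches, against at least 1 match in 7.24% of all 27025 windows and in 5 of the 17 clock genes with a window. Per3, Cry2, Dbp and Nfil3 hold none in theirs. A match was found in 1 of the 4 lower clock genes with a window, 0 of the 1 higher and 4 of the 12 that did not pass. Matches were thus no more frequent among genes that passed, and a match describes the letters only.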

How the data were processed

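RNA of mouse jejunum was measured by bulk sequencing. The deposited values are raw counts per gene, made by the authors. Per the submitters' processing notes, the tools were STAR 2.7.2e, featureCounts 2.0.0, cutadapt 2.9, FastQC 0.11.8 and DESeq2 1.32.0, and the build GRCm38 (mm10). Strand setting, annotation and multiple matches are not stated in what was used here, so overlapping genes and close copies may not be separable. Groups came from the labels, and 9 count columns that matched no sample were not used. Positions are from GENCODE M21 (GRCm38), in which 21743 of the 21868 gene names match a protein-coding gene.

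Counts were analysed with edgeR 4.0.16 in R 4.3.3. Genes passing filterByExpr (14668 of 21868) were scaled with TMM, and all 9 libraries entered a quasi-likelihood model with group means (6 residual degrees of freedom), with TPN minus starvation as the contrast. The standard error is the log2 fold change over the square root of F. CPM values are TMM scaled. Replicates differed by more than sampling noise (chi-square per gene 8.02 to 125). In counts simulated for this comparison (14442 genes), the test recovered 18 of 100 genes set to 2-fold and 69 of 100 set to 4-fold. It made 9 false calls among 14242 unchanged genes, to be read against the 18 and 69 recovered. Each gene was drawn independently, without shifts shared across a library such as that of starvation replicate 3. Recovery and false calls in the data may therefore differ. Ratios of read sums carry exact 95% intervals for counting error only, since without molecular identifiers a read is not an independent molecule.

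The comparison, its 58 gene lists and the rule for named genes were chosen with earlier results of these data known, so lists are described by counts and medians, with no list test. The rule took the 15 largest rises and 15 largest falls (adjusted p under 0.05, mean log2 CPM of at least 3, no overlap), the 4 members of smallest adjusted p of each list with a passing member, and 36 sentinel genes, 35 of them tested (Fgf15 was not). Other genes in the text are further list members or genes seen to differ. Alternatives were DESeq2 1.42.0, voom of limma 3.58.1, other scaling (RLE, upper quartile, totals only), other filters (none, or a CPM of at least 1 in 3 libraries), the 6 libraries alone, the replicate block, a villus tip covariate, stricter thresholds, and each library left out. A few genes the rule names are not reported here.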

Additional observations from a re-analysis of the deposited data

How the results depend on the processing

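Counts of genes higher and lower moved with the tool, the groups fitted and the threshold, in alternatives planned with earlier results known. DESeq2 called 651 higher and 1038 lower, among them 284 of the 285 and all 572, and the fit of the TPN and starvation libraries alone called 250 higher and 295 lower, with 203 of the 285 and 277 of the 572 among its calls. With the villus tip covariate 595 were higher and 870 lower, and without sham replicate 2 and starvation replicate 3 together 1500 and 1705, which included all 857. At an adjusted p under 0.01, 42 and 102 passed, and with a 2-fold minimum 169 and 363. Over the 9 fits that left out 1 library the count ran from 43 to 482 for higher and from 81 to 826 for lower. No called named gene changed sign in any alternative, 43 of the 117 kept their call in all 9 fits, and 20 kept it in fewer than 5. The labels state no pairing of the replicate numbers. Deviations of same-numbered TPN and starvation libraries from their group means had correlations of -0.22, -0.12 and 0.06. With 3 libraries in each group, these values cannot show whether a pairing exists. With the replicate number as a block, 133 genes were higher and 253 lower, or 30 and 50 in the block fit of the 6 libraries alone. An unadjusted p under 0.05 was found for 3385 genes. With 1 read worth 0.0876 to 0.129 CPM before TMM scaling, genes of a few reads are limited by counting error, and 7200 genes were not tested.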

Other observations

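Genes of histamine and retinoid metabolism also differed. Hdc, which makes histamine, was at 2.80, 2.03 and 2.08 CPM in TPN, 8.78, 11 and 14.6 in starvation and 2.85, 2.35 and 3.17 in sham (-2.30 ± 0.30, edgeR quasi-likelihood adjusted p = 0.00512), so the starved libraries stood above both other groups. It is listed among mast cell markers, of which 4 of 8 were tested and the other 3 did not pass. Aldh1a1, which makes retinoic acid, was at 118, 121 and 117 CPM in TPN, 285, 357 and 294 in starvation and 246, 266 and 277 in sham (-1.40 ± 0.15). Cyp26b1, which degrades retinoic acid, was higher in TPN (47.7, 58.8 and 44.5 CPM against 22.9, 19.9 and 6.94, 1.59 ± 0.35), as was Isx, the intestinal repressor of carotene uptake and cleavage (0.83 ± 0.15). These 3 retinoid genes are 3 of 13 tested in their list. Hdc and Aldh1a1 kept their calls with any 1 of the 9 libraries left out, and Cyp26b1 and Isx lost theirs without any 1 of the TPN libraries, Cyp26b1 also without starvation replicate 2 or sham replicate 1 or 3.

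Hba-a1 was at 4.94, 7.99 and 17 CPM in TPN, 46.5, 107 and 88.5 in starvation and 18.6, 68.4 and 17.5 in sham (-3.01 ± 0.64, edgeR quasi-likelihood adjusted p = 0.0282). Erythrocyte markers averaged 0.554, 0.259 and 1.53 log2 CPM in TPN and 2.30, 2.58 and 3.25 in starvation, and the call of Hba-a1 was lost without starvation replicate 2 or any 1 of the TPN libraries, with log2 fold changes of -3.65 to -2.68 over the 9 fits that left out 1 library. The predicted gene Gm45871 was at 155, 107 and 126 CPM in TPN, 22.6, 21.7 and 20.7 in starvation and 22.7, 12.3 and 19.4 in sham (2.58 ± 0.23), and this held with any 1 library left out. Dnah2, a dynein heavy chain, was at 3.46, 4.05 and 3.60 CPM in TPN, 18.2, 23 and 39.3 in starvation and 41.3, 70.3 and 62.1 in sham (-2.85 ± 0.32), so that its 3 groups did not overlap.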
